A study of Mus musculus with 12 samples.

Results

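The levels of 9 transcription factors that mark regions of the forebrain (Emx1, Emx2, Tbr1, Lhx2, Nkx2-1, Gsx2, Otx1, Otx2 and Zic1) were examined in cultured mouse neural stem cells (NSCs). The genes were matched by symbol, and all 9 were present among the 45792 genes in the files. Of these, 6 passed a filter on low counts and were tested, whereas Emx1, Tbr1 and Gsx2 did not pass it and are given as counts. Each of the 3 groups held 4 libraries, for 12 in all. WT NSCs came from forebrains of newborn C57BL/6J pups, and Ncf1-/- NSCs from pups lacking Ncf1 in every cell on the same backcrossed background. Ncf1 encodes the p47phox subunit that activates NADPH oxidases of the Nox2 type. The third group was Ncf1-/- NSCs given mouse recombinant Igfbp2, a secreted protein that binds insulin-like growth factors, 48 hours after plating. Its concentration was 100 ng/ml per the labels, and a lower one per the study's methods. RNA of the treated cultures was prepared 48 hours after treatment. The Ncf1-/- cultures without Igfbp2 are labelled as having no treatment, and the methods call them vehicle-treated. All groups were grown as passaged, proliferating cultures with EGF and FGF. The forebrain was dissociated whole per the methods, and these bulk libraries therefore mix NSCs of any forebrain region. In bulk RNA, fewer cells of a type and less RNA per cell cannot be told apart.

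These factors are the positional code of the forebrain. Emx1, Emx2 and Lhx2 act in the dorsal telencephalon (the pallium), where Emx2 patterns the cortical area map, Lhx2 selects cortical fate over that of the midline hem, and Tbr1 marks newborn deep-layer neurons. Gsx2 specifies the lateral ganglionic eminence and Nkx2-1 the medial ganglionic eminence of the ventral telencephalon (the subpallium), the sources of striatal neurons and of many interneurons. Otx1 and Otx2, homologues of Drosophila orthodenticle, define the rostral brain, and Zic1 is a zinc finger factor of the dorsal midline, septum and meninges. Cells of the postnatal ventricular wall keep part of this code.

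The regions before the start sites are shown for the 3 factors whose window lay outside every annotated exon and at the start of the whole gene, namely Lhx2 and Gsx2, whose Ncf1-/- libraries lay below those of WT, and Nkx2-1, whose groups overlapped. Each line gives the 250 bases before the RefSeq start on the strand of the gene (GRCm38.p6), 5′ to 3′, with every CG dinucleotide in capitals. Lhx2 lies at chr2:38339031-38339280 (+), Gsx2 at chr5:75075351-75075600 (+) and Nkx2-1 at chr12:56536909-56537158 (-).
Lhx2: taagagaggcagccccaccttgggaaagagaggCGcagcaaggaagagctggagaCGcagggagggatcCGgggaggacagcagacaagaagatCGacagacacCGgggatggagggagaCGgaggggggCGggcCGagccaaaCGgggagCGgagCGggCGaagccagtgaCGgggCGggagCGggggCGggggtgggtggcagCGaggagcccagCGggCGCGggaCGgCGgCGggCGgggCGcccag
Gsx2: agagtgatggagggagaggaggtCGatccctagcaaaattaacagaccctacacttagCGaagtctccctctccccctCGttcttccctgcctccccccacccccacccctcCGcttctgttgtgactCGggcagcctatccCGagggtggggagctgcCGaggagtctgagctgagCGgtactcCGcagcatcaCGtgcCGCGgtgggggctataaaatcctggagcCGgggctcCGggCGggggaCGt
Nkx2-1: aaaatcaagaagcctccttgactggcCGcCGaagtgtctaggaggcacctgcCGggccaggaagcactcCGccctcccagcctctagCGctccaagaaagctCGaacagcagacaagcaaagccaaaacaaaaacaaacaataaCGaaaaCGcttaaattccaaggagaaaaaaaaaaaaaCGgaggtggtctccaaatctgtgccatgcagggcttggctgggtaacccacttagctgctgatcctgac
The Lhx2 window held 25 CG dinucleotides at 72.8% G and C, the Gsx2 window 16 at 63.6%, and the Nkx2-1 window 9 at 50.8%. The median over 32851 RefSeq windows of this length was 6 CG dinucleotides and 52.4% G and C. The homeodomain core TAATTA, searched on both strands, was in none of the 3 windows, and it was present in 4.84% of all windows. The core TAATCC, bound by Otx proteins, was in 6.25% of all windows and CAGCTG, an E-box, in 13.0%, and neither was in these 3. RefSeq windows were found for 8 of the 9 factors.

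The libraries held between 18201622 and 34086554 counts. The Ncf1 transcript had 2 to 7 counts in WT, 2 to 4 in vehicle-treated and 1 in each Igfbp2-treated library. WT and vehicle-treated Ncf1-/- overlapped (0.0910 to 0.223 and 0.0746 to 0.194 CPM) and the Igfbp2-treated libraries lay below both (0.0478 to 0.0601 CPM), and at so few counts its RNA does not check the genotype labels. All 12 NSC markers passed the filter, with summed levels of 4010 to 10200 CPM (counts per 1000000 counts of library size, scaled by trimmed mean of M-values, or TMM, factors) in WT, 9600 to 10700 in vehicle-treated Ncf1-/- and 10600 to 11300 in Igfbp2-treated Ncf1-/- NSCs. The NSC list was split between vehicle-treated Ncf1-/- and WT. Of its 12 genes, 5 passed an adjusted p of 0.05 in edgeR as higher and 5 as lower, beside 57.2% of all genes. Vim alone had 626 to 4570 CPM in WT and 3850 to 4310 CPM in vehicle-treated NSCs, whereas Sox2 had 371 to 408 and 191 to 200 CPM. The 12 oligodendrocyte markers summed to 1850 to 10300 CPM in WT and to 224 to 316 CPM in the 8 Ncf1-/- libraries. WT replicate 11 stood apart from the other WT libraries. It had the most counts, the highest NSC marker sum in WT, and the lowest oligodendrocyte marker sum in WT (1850 CPM, against 5800 to 10300 CPM in the other 3). The 8 astrocyte markers summed to 6800 to 12400 CPM in WT and to 2670 to 3840 CPM in the Ncf1-/- libraries, and for vehicle-treated Ncf1-/- against WT 7 of the 8 fell (median log2 fold change -1.67). The 4 Y-linked genes summed to 105 to 116 CPM in the 4 vehicle-treated libraries, to 7.79 to 9.18 CPM in the 4 Igfbp2-treated libraries, to 107 to 118 CPM in WT replicates 9, 10 and 11, and to 6.46 CPM in WT replicate 12. Treatment and Y-linked expression therefore cannot be told apart among the Ncf1-/- libraries. Between Igfbp2-treated Ncf1-/- and WT all 4 genes were called lower in edgeR, beside 62.4% of all genes. Only WT replicate 12 had a sum as low, so that comparison is confounded with Y-linked expression in part. The Y-linked sums also go against the study's statement that both treatments were given to cultures of the same animals. The label of WT replicate 12 is in doubt, because a sample sheet supplied with the analysis code marks this library with an asterisk and lists it under apocynin, an inhibitor of NADPH oxidase, whereas the labels and another sheet list it as untreated WT. It was used as labelled. The closest replicate pair of any group differed by a chi-square of 4.62 per degree of freedom over the tested genes, so none was a library deposited in duplicate.

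Between vehicle-treated Ncf1-/- and WT NSCs, Emx2 was higher and Lhx2 and Otx1 were lower, so 3 of the 6 tested factors passed an adjusted p of 0.05 in edgeR's quasi-likelihood test. Emx2 rose by 0.61 and Lhx2 and Otx1 fell by 0.64 and 0.35 on the log2 scale. Over all 15706 genes tested, 57.2% passed the same test, which is close to the share among the factors. The median log2 fold change was 0.16 over the 6 factors and 0.02 over all genes tested. Between Igfbp2-treated and vehicle-treated Ncf1-/- NSCs, 0 of the 6 factors passed in edgeR or DESeq2, none had an unadjusted p under 0.05 in edgeR, and 25.0% of all genes passed. Between Igfbp2-treated Ncf1-/- and WT NSCs the same 3 factors passed, in the same directions, beside 62.4% of all genes. Both comparisons with WT share the WT libraries. Without WT replicate 12 these 3 factors passed again in both comparisons with WT, in the same directions. Gsx2 then also passed against vehicle-treated, and Gsx2 and Tbr1 against Igfbp2-treated Ncf1-/- NSCs, beside 55.3% and 62.3% of all genes. Neither had passed the count filter with all libraries, and both had their highest group mean in WT. WT replicate 12 held the fewest WT counts of Gsx2 (8) and Tbr1 (4). Leaving it out therefore favoured these calls, which add no separate support. Between the treatments 0 factors passed without that library, beside 26.4% of all genes.

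**Figure D1:**
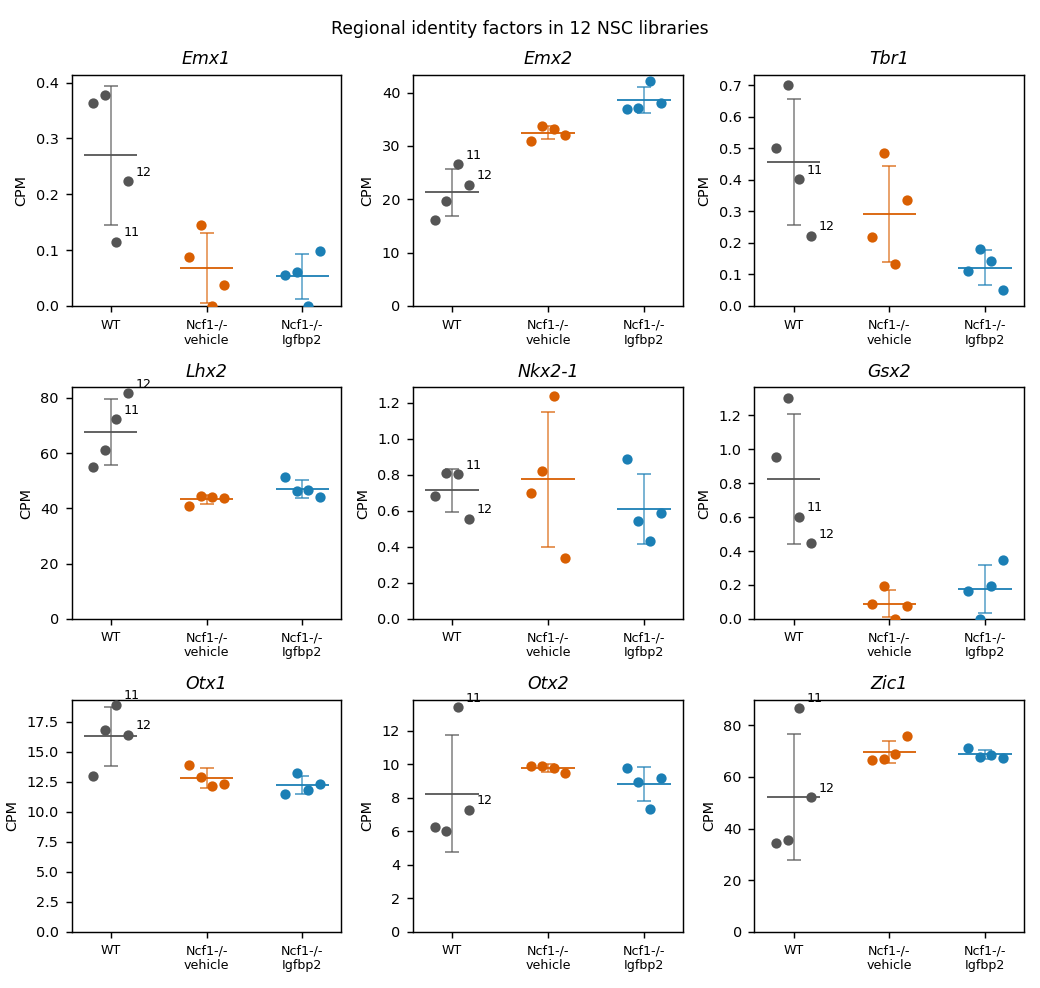
Level of each factor in every library, in CPM on a linear axis from 0, for the WT group and for both Ncf1-/- groups. Points are libraries, horizontal lines are group means, bars are SD (n = 4), and WT replicates 11 and 12 are numbered. Emx2 sits at 16.2 to 26.6 CPM in WT and at 30.9 to 42.1 CPM in the 8 Ncf1-/- libraries, and WT replicate 11 is the highest WT library for Otx2 and Zic1.

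Emx2 (ENSMUSG00000043969, chr19:59458372-59465357, + strand, GRCm38), a homeobox gene of the pallium, was the only tested factor that passed as higher in Ncf1-/- NSCs. In WT replicates 9 to 12, in this order, it had 16.2, 19.6, 26.6 and 22.7 CPM. In vehicle-treated Ncf1-/- replicates 1 to 4 it had 30.9, 33.8, 33.1 and 32.1 CPM. In Igfbp2-treated replicates 5 to 8 it had 37.0, 37.1, 42.1 and 38.1 CPM. In CPM, every library of each group lay above every library of the group before it. Per kb of effective length the treatments overlapped, at 16.4 to 17.5 CPM per kb with vehicle and 15.4 to 25.3 with Igfbp2. The means were 21.3 ± 4.42, 32.5 ± 1.24 and 38.6 ± 2.39 CPM (SD, n = 4). The log2 fold change was 0.61 (SE 0.12, adjusted p = 0.000865) between vehicle-treated Ncf1-/- and WT and 0.86 (SE 0.12, adjusted p = 5.49e-05) between Igfbp2-treated Ncf1-/- and WT. The latter call was lost on TPM, at 0.37 and 0.40 in limma (adjusted p = 0.139 and 0.131) and 0.43 in the study's test (adjusted p = 0.662), where the median of all genes was between -0.25 and -0.43. The former was lost in the study's test (0.67, adjusted p = 0.245). Between the treatments it was 0.25 (95% interval -0.01 to 0.51, adjusted p = 0.144, with 0.20 and adjusted p = 0.0391 in a fit of only those groups), and it was -0.02 when scaled by library totals without TMM and between -0.25 and -0.29 on TPM. The median over all tested genes moved with these scalings too, from 0.04 to -0.23 with library totals and to between -0.30 and -0.43 on TPM. Groups without overlap were no rarity, since the libraries of the 2 treatments were separate for 34.1% of all genes tested and those of vehicle-treated Ncf1-/- and WT for 51.2%. Emx2os, an RNA of the opposite strand that overlaps exons of Emx2, had 3.55 to 6.58 CPM. The strand setting of the counting is not given in the sources used here, and reads of the overlapping exons cannot be told apart.

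Its paralogue Emx1 (ENSMUSG00000033726, chr6:85187438-85204462, + strand), a gene of cortical progenitors and excitatory neurons, was almost absent. WT replicates 9 to 12 had 8, 7, 4 and 4 counts, vehicle-treated Ncf1-/- replicates 1 to 4 had 2, 3, 0 and 1, and Igfbp2-treated replicates 5 to 8 had 1, 1, 0 and 2. All 8 Ncf1-/- libraries were at or under the floor of 3 counts per library, and all 4 WT libraries were above it. Mean Emx1 in WT was 2.07 times that floor in CPM of the vehicle-treated and 1.69 times that of the Igfbp2-treated Ncf1-/- libraries, without regard to counting noise. Without the count filter, its adjusted p was 0.0521 for vehicle-treated Ncf1-/- against WT and 0.0371 for Igfbp2-treated Ncf1-/- against WT, and DESeq2 gave 0.071 and 0.0515. In CPM, WT replicate 11 (0.115) lay below vehicle-treated replicate 2 (0.145).

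Per length of transcript, Emx2 exceeded Emx1 in every library. The log2 ratio of Emx2 to Emx1, taken on CPM per kb of effective length plus 0.1, was 5.10 ± 0.69 in WT, 6.80 ± 0.50 in vehicle-treated and 7.07 ± 0.63 in Igfbp2-treated Ncf1-/- NSCs (SD, n = 4). It differed by 1.70 between vehicle-treated Ncf1-/- and WT and by 1.97 between Igfbp2-treated Ncf1-/- and WT (adjusted p = 0.0571 for each over 6 ratio comparisons, two-sided exact permutation test, with 0.0286 the smallest unadjusted p that 4 against 4 libraries allow). Between the treatments the difference was 0.27 (adjusted p = 0.543, exact permutation test), and it was -0.08 on TPM. Since Emx1 was near 0, these ratios depend on the added 0.1, and with 1 CPM per kb added the differences from WT were 0.83 for vehicle-treated and 1.02 for Igfbp2-treated Ncf1-/- NSCs (adjusted p = 0.0571 for each, exact permutation test).

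Lhx2 (ENSMUSG00000000247, chr2:38339281-38369733, + strand), a LIM-homeobox gene that keeps cortical progenitors from becoming hem or antihem, was lower in Ncf1-/- NSCs. WT replicates 9 to 12 had 55.1, 61.2, 72.3 and 81.7 CPM. Vehicle-treated Ncf1-/- replicates 1 to 4 had 40.9, 44.4, 44.0 and 43.8 CPM. Igfbp2-treated replicates 5 to 8 had 51.4, 46.1, 46.6 and 43.9 CPM. All 8 Ncf1-/- libraries lay below the lowest WT library, and the treatments overlapped. From a mean of 67.6 ± 11.8 CPM in WT it fell to 43.3 ± 1.58 CPM in vehicle-treated Ncf1-/- NSCs (SD, n = 4, log2 fold change -0.64, SE 0.11, adjusted p = 0.000221) and to 47.0 ± 3.18 CPM with Igfbp2 (log2 fold change against WT -0.52, SE 0.11, adjusted p = 0.00098). In the study's test on TPM, the call for vehicle-treated Ncf1-/- against WT was lost (-0.66, adjusted p = 0.147). That for Igfbp2-treated Ncf1-/- against WT was kept there (-1.05, adjusted p = 0.0324). The difference between treatments was 0.12 (95% interval -0.12 to 0.35, adjusted p = 0.444), with the opposite sign under library totals (-0.15) and on TPM (-0.37 to -0.40).

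Tbr1 (ENSMUSG00000035033, chr2:61802930-61814114, + strand), a T-box gene of postmitotic cortical neurons, was present at a few counts. WT replicates 9 to 12 had 11, 13, 14 and 4 counts, vehicle-treated Ncf1-/- replicates 1 to 4 had 5, 10, 3 and 9, and Igfbp2-treated replicates 5 to 8 had 2, 3, 3 and 1. The Igfbp2-treated libraries were all at or under the floor of 3 counts. In CPM they lay below every WT library (0.0491 to 0.18 against 0.223 to 0.702 CPM), and vehicle-treated NSCs overlapped both. Igfbp2-treated Ncf1-/- and WT libraries were apart for 5 of the 9 factors (Emx1, Emx2, Tbr1, Lhx2 and Gsx2) and for 54.3% of all genes tested. Mean Tbr1 was 2.87 times the floor of the Igfbp2-treated libraries in WT and 1.84 times that floor in vehicle-treated Ncf1-/- NSCs. These ratios take no account of counting noise. Vehicle-treated replicate 3 (0.132 CPM) lay below Igfbp2-treated replicates 6 and 7 (0.18 and 0.143 CPM). Without the count filter the adjusted p was 0.011 against WT and 0.185 between the treatments. The 12 neuron markers summed to 667 to 1070 CPM in WT, to 503 to 569 CPM in vehicle-treated and to 460 to 490 CPM in Igfbp2-treated NSCs, and their part in the Tbr1 values was not tested.

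The subpallial factors were both scarce. Gsx2 (ENSMUSG00000035946, chr5:75075601-75077893, + strand), which specifies progenitors of the lateral ganglionic eminence, had 21, 24, 21 and 8 counts in WT replicates 9 to 12. It had 2, 4, 0 and 2 counts in vehicle-treated Ncf1-/- replicates 1 to 4, and 3, 0, 4 and 7 counts in Igfbp2-treated replicates 5 to 8. No Ncf1-/- library reached the lowest WT library. In CPM the WT libraries had 0.445 to 1.30, the vehicle-treated 0.00 to 0.194 and the Igfbp2-treated 0.00 to 0.344. Gsx2 did not pass the count filter, and without it the log2 fold change was -3.14 (adjusted p = 0.000736) for vehicle-treated and -2.11 (adjusted p = 0.00809) for Igfbp2-treated Ncf1-/- against WT. DESeq2 gave -3.25 (adjusted p = 0.000104) and -2.20 (adjusted p = 0.00458). Between the treatments the difference of 1.03 had an adjusted p of 0.465 without the filter.

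Nkx2-1 (ENSMUSG00000001496, chr12:56531958-56536908, - strand), the homeobox gene of the medial ganglionic eminence and hypothalamus, had 15, 15, 28 and 10 counts in WT replicates 9 to 12. Vehicle-treated Ncf1-/- replicates 1 to 4 had 16, 17, 28 and 9 counts, and Igfbp2-treated replicates 5 to 8 had 16, 9, 9 and 12. All 3 groups overlapped. The means were 0.713 ± 0.119, 0.773 ± 0.371 and 0.612 ± 0.195 CPM (SD, n = 4). The log2 fold change was 0.09 between vehicle-treated Ncf1-/- and WT (95% interval -0.67 to 0.84, adjusted p = 0.846), and its sign turned when vehicle-treated replicate 3 was left out (-0.25). The counts per library were only 9 to 28, and a change within that interval is not excluded.

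**Figure D2:**
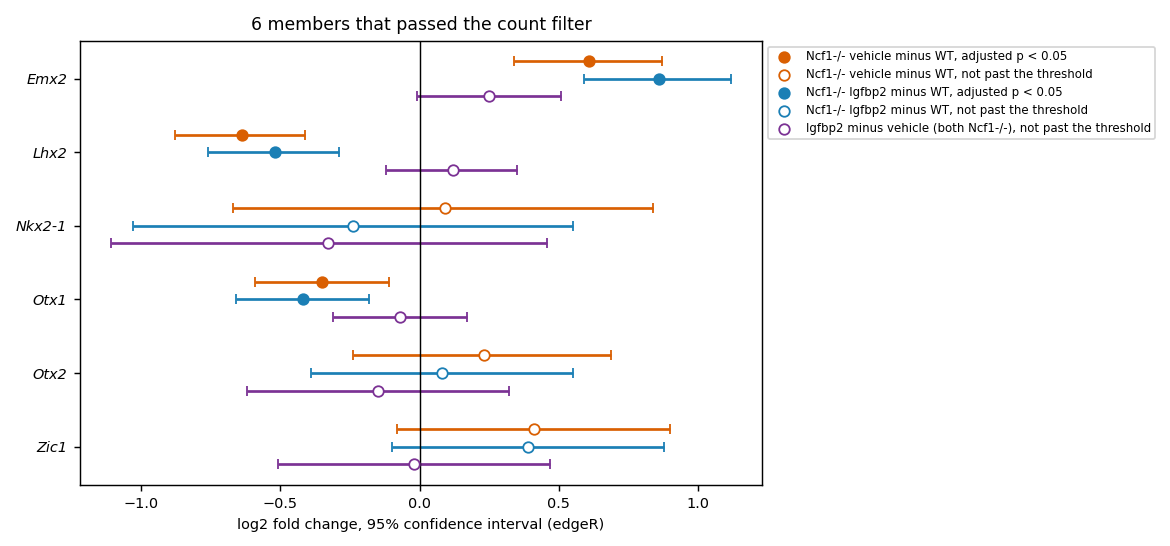
Log2 fold changes of the 6 factors that passed the count filter in the 3 comparisons, from edgeR, with 95% confidence intervals. Filled points passed an adjusted p of 0.05. Emx2 lies above 0 and Lhx2 and Otx1 lie below 0 in both comparisons with WT, and 0 of 6 points are filled for Igfbp2 against vehicle.

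The rostral factors Otx1 and Otx2 are paralogues of similar DNA binding. Otx1 (ENSMUSG00000005917, chr11:21994764-22002897, - strand), which acts in cortical and sense organ development, had 13.0, 16.8, 18.9 and 16.4 CPM in WT replicates 9 to 12. Vehicle-treated Ncf1-/- replicates 1 to 4 had 13.9, 12.9, 12.1 and 12.3 CPM, and Igfbp2-treated replicates 5 to 8 had 11.5, 13.2, 11.8 and 12.3 CPM. WT replicate 9 lay among the Ncf1-/- libraries, and the other 3 WT libraries lay above all of them. The log2 fold change was -0.35 (SE 0.11, adjusted p = 0.0158) for vehicle-treated and -0.42 (SE 0.11, adjusted p = 0.00516) for Igfbp2-treated Ncf1-/- against WT. The former was lost with library totals (-0.17, adjusted p = 0.233), where the median of all genes was 0.19. It was also lost on TPM, at -0.40 and -0.48 in limma (adjusted p = 0.104 and 0.12) and -0.54 in the study's test (adjusted p = 0.326). The latter was lost in the study's test (-0.91, adjusted p = 0.0777). Between the treatments the change was -0.07 (95% interval -0.31 to 0.17, adjusted p = 0.665), and library totals gave -0.34 (adjusted p = 0.0418) where the median of all genes was -0.23.

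Otx2 (ENSMUSG00000021848, chr14:48657677-48673819, - strand), required for the forebrain and midbrain and later for the choroid plexus, had 6.28, 6.04, 13.4 and 7.29 CPM in WT replicates 9 to 12. In vehicle-treated Ncf1-/- replicates 1 to 4 it had 9.93, 9.92, 9.80 and 9.48 CPM, and in Igfbp2-treated replicates 5 to 8 it had 9.80, 8.96, 7.36 and 9.18 CPM. WT replicate 11 was the highest of the 12 libraries, and the other 3 WT libraries lay below all 8 Ncf1-/- libraries. With all libraries the log2 fold change was 0.23 (95% interval -0.24 to 0.69, adjusted p = 0.388) for vehicle-treated Ncf1-/- against WT. Without WT replicate 11 it was 0.58 (adjusted p = 0.00088), and for Igfbp2-treated Ncf1-/- against WT it moved from 0.08 (adjusted p = 0.771) to 0.43 (adjusted p = 0.00657). On TPM and with library totals the latter, with all libraries, was below 0. The 10 choroid plexus markers summed to 1.33 to 3.02 CPM over the 12 libraries, with 5 of them at 10 or fewer counts in every library. The 1 marker tested, Sostdc1, a secreted antagonist of BMP and Wnt, was called higher in both comparisons with WT, at 0.0455 to 0.0860 CPM in WT (1 to 3 counts), 0.629 to 1.31 CPM in vehicle-treated and 0.443 to 0.909 CPM in Igfbp2-treated NSCs. It passed the count filter only through the Ncf1-/- libraries, which favours a call as higher. Aqp1, listed but untested, went the other way, with 14 to 21 counts in WT, 4 to 9 in vehicle-treated and 2 to 3 in Igfbp2-treated libraries. The list summed to 1.78 to 3.02, 1.98 to 2.88 and 1.33 to 2.10 CPM in these groups. The part of Sostdc1 and of the other choroid plexus markers in the Otx2 values was not tested.

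The log2 ratio of Otx2 to Otx1 on CPM per kb plus 0.1 was -0.10, -0.71, 0.28 and -0.60 in WT replicates 9 to 12. It was 0.53, 0.52, 0.79 and 0.35 in vehicle-treated Ncf1-/- replicates 1 to 4, and 0.47, 0.25, -0.18 and 0.34 in Igfbp2-treated replicates 5 to 8. The vehicle-treated libraries all lay above the WT libraries. The difference of 0.83 had an adjusted p of 0.0571 in the two-sided exact permutation test. Differences of -0.33 between the treatments and 0.50 between Igfbp2-treated Ncf1-/- and WT had adjusted p values of 0.0857 and 0.206 by that exact permutation test.

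Zic1 (ENSMUSG00000032368, chr9:91358058-91365810, - strand), a zinc finger factor of dorsal midline progenitors, had the widest spread in CPM within WT of the 9 factors. WT replicates 9 to 12 had 34.5, 35.5, 86.8 and 52.1 CPM. Vehicle-treated Ncf1-/- replicates 1 to 4 had 66.6, 67.1, 69.1 and 76.0 CPM, and Igfbp2-treated replicates 5 to 8 had 71.2, 67.8, 68.7 and 67.4 CPM. As for Otx2, 3 WT libraries lay below all 8 Ncf1-/- libraries and WT replicate 11 lay above them. With all libraries the log2 fold change against WT was 0.41 (95% interval -0.08 to 0.90, adjusted p = 0.138) for vehicle and 0.39 (adjusted p = 0.149) for Igfbp2. Without WT replicate 11 these were 0.78 (adjusted p = 0.000128) and 0.76 (adjusted p = 0.000153). The treatments differed by -0.02 (95% interval -0.51 to 0.47, adjusted p = 0.961). The 12 markers of meninges and mesenchyme summed to 15.1 to 27.7 CPM in WT, 17.2 to 23.7 CPM in vehicle-treated and 34.8 to 43.3 CPM in Igfbp2-treated NSCs. Among them, 6 (Crabp2, Aldh1a2, Dcn, Lum, Tbx18 and Foxd1) had 10 or fewer counts in every library and were not tested. Of the 6 tested, 5 were called higher and 1 lower in each comparison with WT (median log2 fold change 1.30 for vehicle and 2.61 for Igfbp2), and 4 were called higher between the treatments (median 1.06). Over all genes, 57.2% passed for vehicle and 62.4% for Igfbp2 against WT, and 25.0% between the treatments. Col3a1 (1 to 10 counts in WT, 46 to 92 in vehicle-treated) and Slc6a13 (0 to 16 and 53 to 74) passed the count filter through Ncf1-/- libraries. So did Col1a2, with 1 to 15 counts in WT, 13 to 19 in vehicle-treated and 35 to 48 in Igfbp2-treated libraries. Such a filter favours calls as higher. The transcription factor Foxc1 was among those called higher in all 3 comparisons, and Pdgfrb, a growth factor receptor of pericytes, was the 1 called lower against WT. The part of these markers in the Zic1 values was not tested. Zic4, which overlaps exons of Zic1 on the opposite strand, had 3.71 to 6.97 CPM.

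With WT replicate 11 left out, 5 of 6 factors passed between vehicle-treated Ncf1-/- and WT (Emx2, Otx2 and Zic1 higher, Lhx2 and Otx1 lower), where 59.1% of all genes passed. The same 5 passed between Igfbp2-treated Ncf1-/- and WT, where 62.7% passed. Between the treatments 0 of 6 passed in that fit, beside 30.6% of all genes. In that library Zic1 was 2.13 times and Otx2 2.05 times the mean of the other WT libraries. The ratio was 1.36 for Emx2, 1.23 for Otx1 and 1.10 for Lhx2. The NSC markers were 2.13 times that mean, Vim 4.87 times and Nes 3.38 times, whereas oligodendrocyte markers were 0.213 and oligodendrocyte precursor markers 0.508 times that mean. Vim made up 4570 of the 10200 CPM of the NSC markers there, and Sox2, of the same list, spanned only 371 to 408 CPM over the WT libraries. The astrocyte markers were at 1.47 times. The ependymal markers, ciliated cells of the ventricle wall, were at 2.86 times, and Foxj1 (13.2 to 55.5 CPM in WT) made up most of their sum. The part of these cell types in the levels of the factors was not tested.

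**Figure D3:**
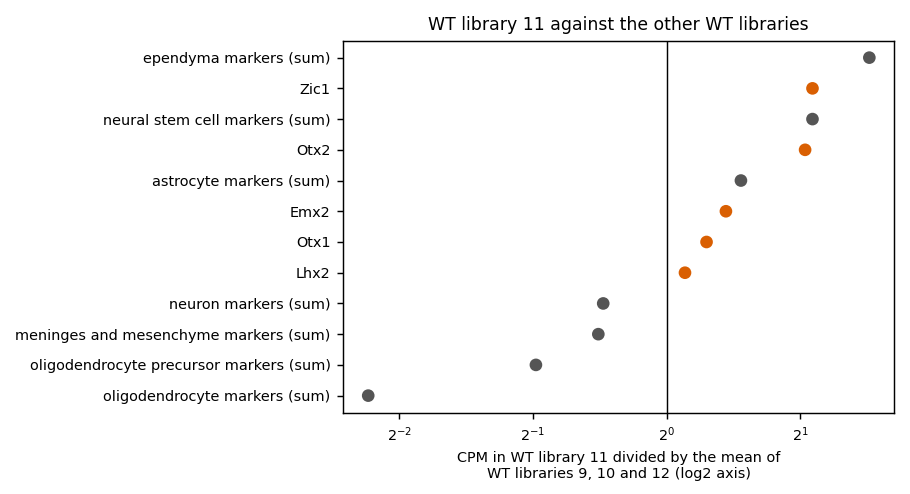
Ratio of WT replicate 11 to the mean of WT replicates 9, 10 and 12, on a log2 axis, for the 5 factors above 5 CPM (orange) and for summed marker lists (grey). The vertical line marks equal levels. Zic1 (2.13) and Otx2 (2.05) lie beside the NSC marker sum (2.13), of which Vim is a large part, at the opposite end from oligodendrocyte markers (0.213).

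Compared per kb of effective transcript length, the factors fell into an abundant and a scarce set. In WT, mean levels in CPM per kb were 30.3 ± 6.20 for Lhx2, 18.4 ± 9.44 for Zic1, 11 ± 2.05 for Emx2, 6.56 ± 1.39 for Otx1 and 5.55 ± 2.28 for Otx2 (SD, n = 4). The other 4 lay between 0.224 (Tbr1) and 0.611 (Gsx2) CPM per kb. The libraries of Lhx2 and Zic1, of Zic1 and Emx2, and of Otx1 and Otx2 overlapped in WT. In vehicle-treated Ncf1-/- NSCs the order began with Zic1 (22.2 ± 0.768), Lhx2 (18.9 ± 0.583) and Emx2 (17.1 ± 0.500), none of which overlapped its neighbour, followed by Otx2 (6.56 ± 0.477) and Otx1 (4.45 ± 0.380). In Igfbp2-treated Ncf1-/- NSCs Zic1 was at 26.2 ± 3.08, above Lhx2 at 19.9 ± 1.01 and Emx2 at 19.7 ± 4.17 CPM per kb, and the latter pair overlapped. Otx2 (5.50 ± 0.672) and Otx1 (4.69 ± 0.441) overlapped there too. Among the 4 scarce factors, neighbours in this order overlapped in each group.

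**Figure D4:**
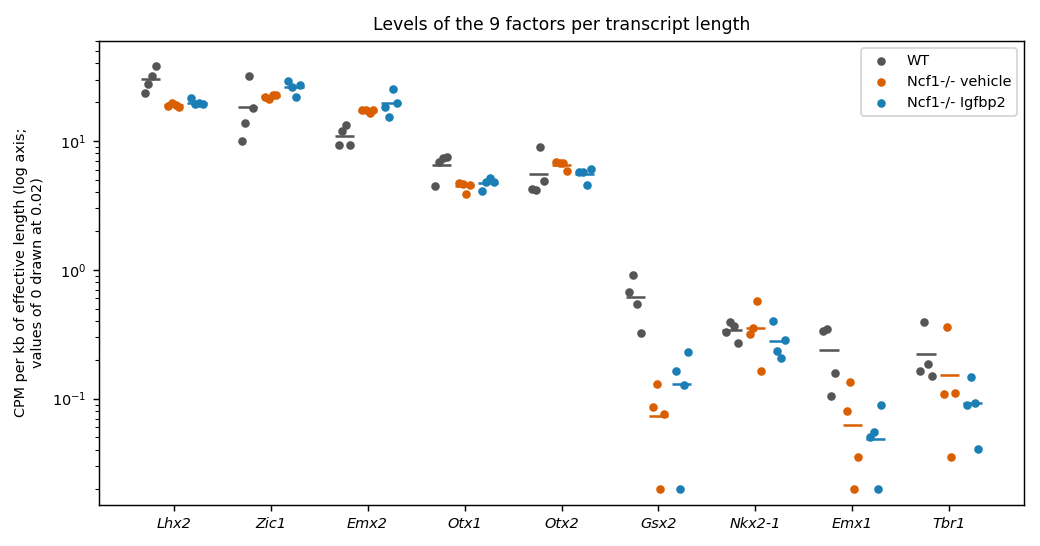
Level per transcript length of the 9 factors, in CPM per kb of effective length on a log axis, with a point per library, a line at each group mean and values of 0 drawn at 0.02. Lhx2 leads in WT (30.3) and Zic1 in both Ncf1-/- groups (22.2 and 26.2), and the scarce factors Gsx2, Nkx2-1, Emx1 and Tbr1 lie below 1.

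Other regional factors were read from 4 lists. Counts below are of genes that passed an adjusted p of 0.05, which 57.2% of all genes did between vehicle-treated Ncf1-/- and WT (4545 higher and 4433 lower). Of 24 pallial genes, 15 were tested, and in this comparison 3 were called higher and 8 lower (median log2 fold change -0.43, against 0.02 over all genes). Without regard to the test, 5 of the 15 had a log2 fold change above 0 and 10 below. Pax6, which patterns the dorsal ventricular zone, fell by 0.43 on the log2 scale (SE 0.11, adjusted p = 0.00365), from 37.9 to 54.8 CPM in WT to 30.0 to 35.4 CPM. Nr2f2, a nuclear receptor of caudal and ventral progenitors, fell by 1.20 (adjusted p = 0.000234). Lmo4 and Lmo3, LIM-only cofactors, rose by 1.12 (adjusted p = 2.47e-07) and 0.43 (adjusted p = 0.00201). For Igfbp2-treated Ncf1-/- against WT, the log2 fold change of Pax6 was -0.56 (adjusted p = 0.000559).

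Of 22 subpallial genes, 15 were tested between vehicle-treated Ncf1-/- and WT, and 1 was called higher and 7 lower (median -0.27), a share close to the 57.2% of all genes. Dlx2, a homeobox gene of interneuron progenitors, fell by 2.11 (SE 0.25, adjusted p = 1.35e-05), from 11 to 27.3 CPM in WT to 4.50 to 5.37 CPM. Nkx2-2, which also acts in maturing oligodendrocyte precursors, fell by 1.99 (adjusted p = 1.65e-06). Olig2, a factor of ventral progenitors and the oligodendrocyte lineage, rose by 0.29 (adjusted p = 0.00978). Of these 22 genes, Nkx6-2 also stood among the oligodendrocyte markers, and the part of the oligodendrocyte lineage in the counts was not tested.

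Of 16 genes of the midline and hem, 6 were tested between vehicle-treated Ncf1-/- and WT, and 0 were called higher and 3 lower (median -0.34), again close to the 57.2% of all genes. Zic2 and Zic5, relatives of Zic1, fell by 0.79 (adjusted p = 0.000407) and 0.48 (adjusted p = 0.00434). Zic2 had 23.9 to 40.0 CPM in WT and 17.1 to 21.3 CPM in vehicle-treated Ncf1-/- NSCs, without overlap, whereas Zic5 overlapped. Of 37 genes of posterior brain and spinal cord, 27 had 10 or fewer counts in every library and 7 were tested, with 2 called higher and 0 lower (median 0.04), below the 57.2% of all genes. En2, a midbrain and hindbrain factor, rose by 1.03 (SE 0.33, adjusted p = 0.0172), from 11.6 to 45.8 CPM in WT, the highest being replicate 11, to 42.6 to 47.9 CPM. Without WT replicate 11, the pallial list had 4 called higher and 9 lower of 16, the subpallial 2 and 7 of 16, the midline 1 and 3 of 6 and the posterior 2 and 0 of 7, beside 59.1% of all genes (4907 higher and 4499 lower). Without WT replicate 12 the counts were 2 and 8 of 15, 1 and 7 of 16, 0 and 3 of 6 and 1 and 0 of 7, beside 55.3% of all genes.

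Between the Ncf1-/- treatments 25.0% of all genes passed, and the lists had 1 higher and 1 lower of 15 pallial, 0 and 1 of 15 subpallial, 0 and 1 of 6 midline and 0 and 1 of 7 posterior genes. Sp8, a zinc finger factor of olfactory bulb interneuron progenitors, rose by 1.02 with Igfbp2 (SE 0.21, adjusted p = 0.00502), from 9.50 to 11.8 CPM to 19.6 to 25.0 CPM. Lmo3 fell by 0.58 (adjusted p = 0.00223), Dlx1 by 0.86 (adjusted p = 0.0489), Zic5 by 0.39 (adjusted p = 0.0381) and Irx1 by 0.65 (adjusted p = 0.0149). The 4 Y-linked genes also fell in this comparison, and the part of what they mark was not tested. With WT replicate 11 left out, which changes the shared estimate of spread, 3 of 16 pallial genes were called higher and 1 lower, and 2 of 16 subpallial genes higher and 3 lower, beside 30.6% of all genes.

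**Figure D5:**
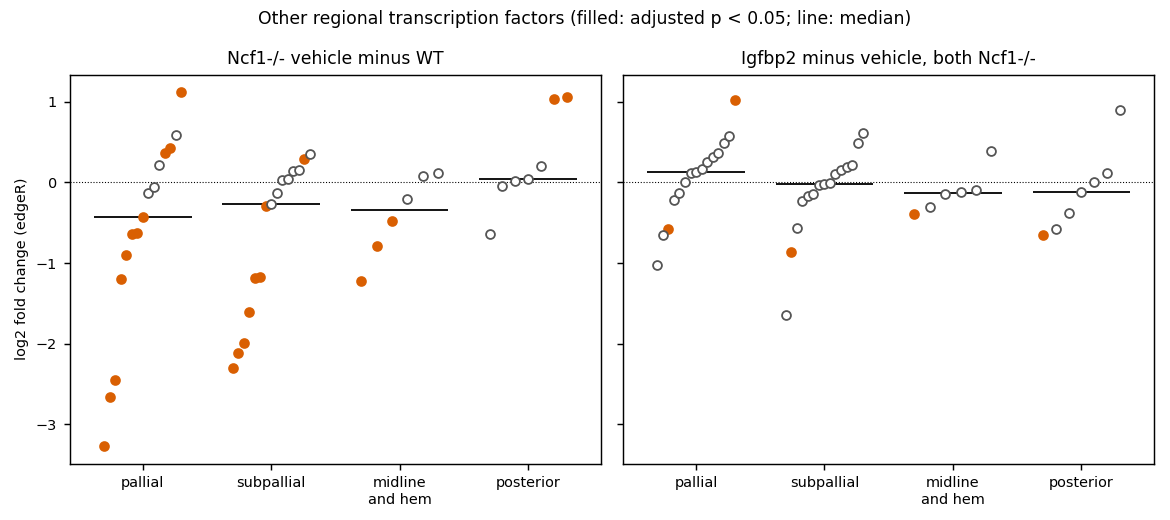
Log2 fold changes of other regional transcription factors in 4 lists, for vehicle-treated Ncf1-/- minus WT (left) and Igfbp2 minus vehicle in Ncf1-/- (right). Each point is a gene, filled points passed an adjusted p of 0.05 in edgeR, and horizontal lines are list medians. On the left 8 of 15 pallial genes are filled below 0 and 3 above, beside 57.2% of all genes called. Of 15 subpallial genes there, 7 are filled below 0 and 1 above. On the right 1 pallial gene is filled above 0 and 1 gene of each list below, beside 25.0% of all genes called.

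The genes whose levels tracked each factor of at least 1 CPM on average most closely were sought among the 11172 genes averaging 5 CPM or more, by Pearson's r of log2 CPM over the 12 libraries. The libraries share group and depth, and these values are descriptions. Emx2 was nearest to Cdh4 (r = 0.991), a cadherin, Sept9 (0.989), a septin, and Lamb1 (0.987), a laminin chain. Lhx2 was nearest to Lurap1 (0.965), Mex3d (0.956) and Arhgap44 (0.954). Otx1 was nearest to Pax6 (0.949), Inpp5e (0.937) and Lrrc16a (0.922). Otx2 was nearest to Dhx32 (0.957), Paqr8 (0.953) and Pdpn (0.943), and Zic1 to Rgs20 (0.983), Vim (0.979), the intermediate filament of NSCs and astrocytes, and Itgb8 (0.976). With group means removed, Zic1 and Vim had r = 0.995, Otx2 and Pdpn 0.990 and Zic1 and Otx2 0.91, and within-group values of Zic1 and Otx2 are led by WT replicate 11. Emx2 and Zic1 had 0.86 and Nkx2-1 had between -0.03 and 0.24 with the other 5 tested factors.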

How the data were processed

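RNA depleted of rRNA was sequenced from 12 cultures, 4 per group. The authors mapped the reads with Bowtie2 to GRCm38 and quantified genes with RSEM, and they deposited expected counts, TPM, FPKM (not used) and effective lengths (an other value, in bases) per gene. The merged table holds a score made by the authors, equal to the TPM times the number of transcripts of the gene, and only its symbols were used. Members and gene lists were chosen with earlier results of these data known.

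Expected counts were rounded, filtered by filterByExpr, TMM normalized and fitted with edgeR 4.0.16 (quasi-likelihood, 12 libraries, R 4.3.3), with Benjamini-Hochberg adjustment over 15706 genes. CPM used TMM-scaled library sizes. Alternatives used DESeq2 1.42.0, limma 3.58.1, the one-way ANOVA and Tukey test of the study's methods on TPM, other filters and scalings, and libraries left out. The scripts were tested on simulated data. Named from each list were, per comparison of vehicle with WT and of the treatments, up to 2 called genes that rose most and up to 2 that fell most among genes averaging 5 CPM or more, plus Pax6. A gene that this rule selects is not reported here. The study's methods pair vehicle and Igfbp2 cultures by animal. Deviations from group means correlated by -0.0673 to 0.0328 in the 4 same-numbered pairs and by -0.248 to 0.257 in the 12 others. Positions and overlaps came from GENCODE M21.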

Additional observations from a re-analysis of the deposited data

Results flagged for a closer look

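The level of Otx2 in WT replicate 11 was 13.4 CPM, and its gap to the nearest WT library, divided by the range of the 4 WT libraries, was 0.831, just above Dixon's critical value for 4 samples. It was the 1 such value among 27 combinations of a factor and a group, and chance flags about 1 in 20 groups. With that library left out, the log2 fold change of Otx2 between vehicle-treated Ncf1-/- and WT moved from 0.23 to 0.58.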

How the results depend on the processing

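Leaving out single libraries gave 3 to 5 factors called between vehicle-treated Ncf1-/- and WT, 3 to 5 between Igfbp2-treated Ncf1-/- and WT, and 0 between the treatments in each case. The count of 5 against vehicle-treated Ncf1-/- came without WT replicate 11. The count of 5 against Igfbp2-treated Ncf1-/- came without WT replicate 11 (Otx2 and Zic1 then passed) and without WT replicate 12, vehicle-treated replicate 3 or Igfbp2-treated replicate 5 or 6 (Gsx2 and Tbr1 then passed the count filter and the test). Gsx2 and Tbr1 did not pass that filter with all libraries, and their means were highest in WT, which favours calls as lower. With both WT replicates 11 and 12 left out, chosen after seeing the data, 5, 7 and 1 factors were called. Of the 16306 genes tested there, 4758 were called higher and 4857 lower between vehicle-treated Ncf1-/- and WT. The numbers were 4962 and 5560 between Igfbp2-treated Ncf1-/- and WT, and 3170 and 2858 between the treatments. In that fit Otx1 no longer passed between vehicle-treated Ncf1-/- and WT (-0.26, adjusted p = 0.0769 in edgeR). The study's own test on TPM called 1 (Gsx2) between vehicle-treated Ncf1-/- and WT. Between the treatments, library totals called 1 (Otx1), a fit of only the groups compared 1 (Emx2) and limma on log2(TPM + 1) and log2(TPM + 0.1) 1 each (Otx2). Between Igfbp2-treated Ncf1-/- and WT, DESeq2 called 5, the unfiltered fit 6, the study's test 3 (Emx1, Lhx2 and Gsx2) and both limma fits on TPM 2 (Lhx2 and Otx1), so Emx2 was not called on TPM. The share of all genes called in these other fits is not given here, and the counts cannot be set against it.

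Each sign that turned belonged to a change that had not passed with all libraries, and no value with the turned sign passed. In the original direction, Otx2 passed for Igfbp2-treated Ncf1-/- against WT without WT replicate 11 (0.43, adjusted p = 0.00657) and without both WT replicates (0.43, adjusted p = 0.00745). Emx2 passed between the treatments in a fit of only those groups (0.20, adjusted p = 0.0391) and without both WT replicates (0.22, adjusted p = 0.0437). Signs that turned between the treatments were Emx2 at -0.02 with library totals, -0.25 in the study's test and -0.27 and -0.29 in limma, and Lhx2 at -0.15, -0.39, -0.37 and -0.40 likewise. Zic1 ranged from -0.06 to 0.04 with single libraries left out, and the Emx2 to Emx1 ratio from -0.04 to 0.46, with -0.08 on TPM. For Igfbp2-treated Ncf1-/- against WT, Otx2 was at -0.03 with library totals, -0.49 in the study's test and -0.31 and -0.37 in limma, and ranged from -0.10 to 0.43 with single libraries left out. For vehicle-treated Ncf1-/- against WT, Nkx2-1 was at -0.01 in limma on log2(TPM + 0.1) and at -0.01 without both WT replicates, and ranged from -0.25 to 0.32 with single libraries left out. The cause was not tested. With the replicate block by animal, the same 3, 0 and 3 factors were called, and the log2 fold change of Emx2 between the treatments was 0.25 (adjusted p = 0.223). The block changed no call among the tested factors. The Y-linked sums go against the pairing that the block assumes, so this fit cannot check the calls. The share of all genes called with the block is not given here. Scarce factors are limited by depth, at 28 or fewer counts per library.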
